A study of Mus musculus with 14 samples.

Results

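This account covers 10 germline genes whose promoters are known targets of DNA methylation in mouse somatic and embryonic cells: *Stra8*, *Dazl*, *Ddx4*, *Mael*, *Sycp1*, *Sycp3*, *Asz1*, *Slc25a31*, *Taf7l* and *Tex101*. They were chosen by name as a group with a shared mode of repression, with earlier results of these data known. Shares of the 10 set beside those of all genes therefore describe these data and are no independent test. Each of the 10 matched exactly 1 of the 54446 gene identifiers in the files. All 10 were among the 15878 genes that passed a filter on low values and entered the tests.

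The data are bulk RNA-seq of E14, a mouse embryonic stem (ES) cell line kept in serum and LIF with no feeder cells. Wild-type cells were collected at 0, 24, 72 and 144 h of mTORi, and cells labelled *Tet1/2* DKO at 0, 24 and 72 h. Here mTORi is exposure to an inhibitor of mTOR, which brings ES cells into a dormancy-like state. The study names INK128 or RapaLink-1 as the inhibitor, and which of them was used for these libraries is not given. Each of the 7 groups had 2 libraries, 14 in all. TET1 and TET2 oxidize 5-methylcytosine, the first step of active DNA demethylation, and the study asked what ES cells that lack both do under mTORi. The knockout line was made in feeder-free ES cells by cutting both genes with Cas9 and sorting single cells, so that an effect of the derived line cannot be told apart from that of the genotype, and the 0 h groups of both genotypes received no inhibitor. Values are TPM, a transcript abundance corrected for transcript length and scaled to the same total in every library, and a change in all RNA per cell therefore does not show in them. For this reason a second scale is given beside the first, spike-in scaled TPM, in which each library was multiplied by 1 factor taken from the study's own ERCC normalization. In bulk RNA, more cells that express a gene and more RNA per expressing cell cannot be told apart.

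The targeted genes were examined first. *Tet2* stood at 96.0 to 143 TPM in the wild-type libraries and at 15.9 to 22.2 TPM in those labelled DKO, and it was lower by 2.41 ± 0.07 on the log2 scale (± SE, averaged over 0, 24 and 72 h; limma adjusted p = 1.6e-07). *Tet1* was less reduced, with 191 to 313 TPM in the wild-type libraries of these times and 147 to 248 TPM in the libraries labelled DKO, a log2 fold change of −0.40 ± 0.05 (limma adjusted p = 0.00093). That call depended on the scale. With spike-in scaling, introduced above, the averaged value was −0.13 ± 0.17 (limma adjusted p = 0.57), and the mean at 72 h was 516 in the libraries labelled DKO against 473 in wild type. *Tet2* was called lower on that scale too (−2.17 ± 0.16, limma adjusted p = 2.7e-07). A value per gene does not show which exons the remaining reads came from. The study screened clones by PCR and checked both knockouts by western blot, so the RNA values here say nothing about TET1 or TET2 protein. Because *Tet1* RNA remained, the group is called by its label throughout, and every direction given for it is that of the libraries labelled DKO. Embryonic stem cell markers (*Pou5f1*, *Sox2*, *Nanog*, *Esrrb*, *Zfp42*, *Dppa5a* and *Utf1*) were high in all 14 libraries, with a summed level between 4081 and 6411 TPM. In the averaged comparison 2 of the 7 were called lower in the libraries labelled DKO (*Sox2* at −0.25 and *Esrrb* at −0.27, limma adjusted p = 0.020 and 0.038) and 0 higher, against 6.38% and 13.3% of all genes. Of 8 spermatid markers, 5 (*Prm1*, *Prm2*, *Tnp2*, *Acrv1* and *Akap4*) were at 0 in every library and the sum of all 8 did not exceed 0.456 TPM. Of 6 oocyte markers, 1 (*Zp3*) averaged at least 1 TPM, and the sum ran from 3.45 to 16.6 TPM in wild type and from 3.04 to 18.6 TPM in the libraries labelled DKO. Of 7 primordial germ cell markers, all averaged at least 1 TPM, and their sum ran from 62.7 to 144 TPM in wild type and from 60.8 to 152 TPM in the libraries labelled DKO, with 0 of 7 called in either direction in the averaged comparison. Of 5 markers of gonad somatic cells, 2 averaged at least 1 TPM, with sums of 8.37 to 33.5 TPM and 6.18 to 14.7 TPM. Of 11 markers of 2-cell-like cells, 8 averaged at least 1 TPM and were tested, and 6 of these (all of them *Zscan4* paralogs, whose reads can be shared between copies) were called lower in the libraries labelled DKO, against 6.38% of all genes. The sum of the 11 ran from 9.89 to 260 TPM there and from 48.4 to 299 TPM in wild type. The part of these cells in the results below was not tested.

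Germline genes of this kind have promoters rich in CG pairs that gain methylation after implantation and stay silent in somatic tissues. In ES cells they are also held down by PRC1.6, a variant Polycomb complex that is brought to them by MGA with MAX at E-box sites and by E2F6 at its own sites, and by H3K9 methylation through SETDB1. TET1 is known as well to occupy many CG-rich promoters together with repressors. Loss of either layer lets members of the group be transcribed outside the germ line.

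The promoters are shown because the group is named for repression at its promoters, although methylation itself is not analysed here. RefSeq promoter windows (GRCm38.p6, 250 bases before to 50 after the start site) were matched by symbol for all 10 genes. They held 10 (*Stra8*) to 38 (*Ddx4*) CG pairs, with a median of 20 against 7 over all 32851 windows of the same length. The E-box CACGTG, which is its own reverse complement, was in the windows of 6 of the 10 genes and in 7.15% of all windows. The E2F-like motif GCGGGAA, on either strand, was in 3 of the 10 and in 4.6% of all windows. Both motifs were in 3 of the 10 (*Ddx4*, *Sycp3* and *Slc25a31*) and in 0.457% of all windows. Each motif holds a CG pair and the windows were not matched for CG pairs, so these shares do not separate the motifs from CG content. Whether E2F6 binds GCGGGAA in these windows was not tested. The stretches around each E-box follow, 5′ to 3′ on the strand of the gene, with the E-box in capitals and its first base counted back from the start site.

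Ddx4 (chr13:112652311-112652364, minus strand, E-box at −29): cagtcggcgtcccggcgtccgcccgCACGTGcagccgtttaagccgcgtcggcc
Mael (chr1:166238937-166238992, minus strand, E-box at −223): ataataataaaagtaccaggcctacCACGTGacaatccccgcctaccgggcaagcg
Sycp1 (chr3:102936164-102936219, minus strand, E-box at −94): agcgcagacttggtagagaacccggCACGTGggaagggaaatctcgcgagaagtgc
Sycp3 (chr10:88459498-88459574, plus strand, E-box at −64 and −43): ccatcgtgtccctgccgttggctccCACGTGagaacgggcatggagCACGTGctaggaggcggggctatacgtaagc
Slc25a31 (chr3:40708753-40708808, plus strand, E-box at −93): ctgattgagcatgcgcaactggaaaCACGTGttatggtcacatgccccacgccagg
Taf7l (chrX:134476509-134476564, minus strand, E-box at −49): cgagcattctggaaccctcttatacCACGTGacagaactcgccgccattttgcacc

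The E2F-like motif upstream of the start site is in capitals in the next stretches, at −136 in *Ddx4* and at −147 in *Sycp3*. In *Slc25a31* it began at position 20 after the start site.

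Ddx4 (chr13:112652425-112652461, minus strand): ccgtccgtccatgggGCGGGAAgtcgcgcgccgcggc
Sycp3 (chr10:88459425-88459461, plus strand): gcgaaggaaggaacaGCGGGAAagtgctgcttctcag

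Neither motif was found in the windows of *Stra8*, *Dazl*, *Asz1* and *Tex101*. The 120 bases before the start sites of *Stra8* and *Dazl* are set side by side because *Stra8*, which gave the largest values below, had the fewest CG pairs of the 10 genes, and *Dazl* had 28 in its window. CG pairs are in capitals.

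Stra8 (chr6:34920828-34920947, plus strand): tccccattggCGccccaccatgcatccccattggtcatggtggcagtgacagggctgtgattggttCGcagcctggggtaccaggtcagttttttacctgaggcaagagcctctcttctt
Dazl (chr17:50293621-50293740, minus strand): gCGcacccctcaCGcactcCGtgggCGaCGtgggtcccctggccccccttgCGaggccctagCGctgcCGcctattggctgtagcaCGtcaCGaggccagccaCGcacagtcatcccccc

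The stretch of *Stra8* held 2 CG pairs and that of *Dazl* 11. The RefSeq start site of *Stra8* lay 785 bases, and that of *Tex101* 4625 bases, downstream of the gene start in the deposited files, so the windows of these 2 genes do not cover the deposited start. For the other 8 genes the difference was 0 to 165 bases.

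**Figure D1:**
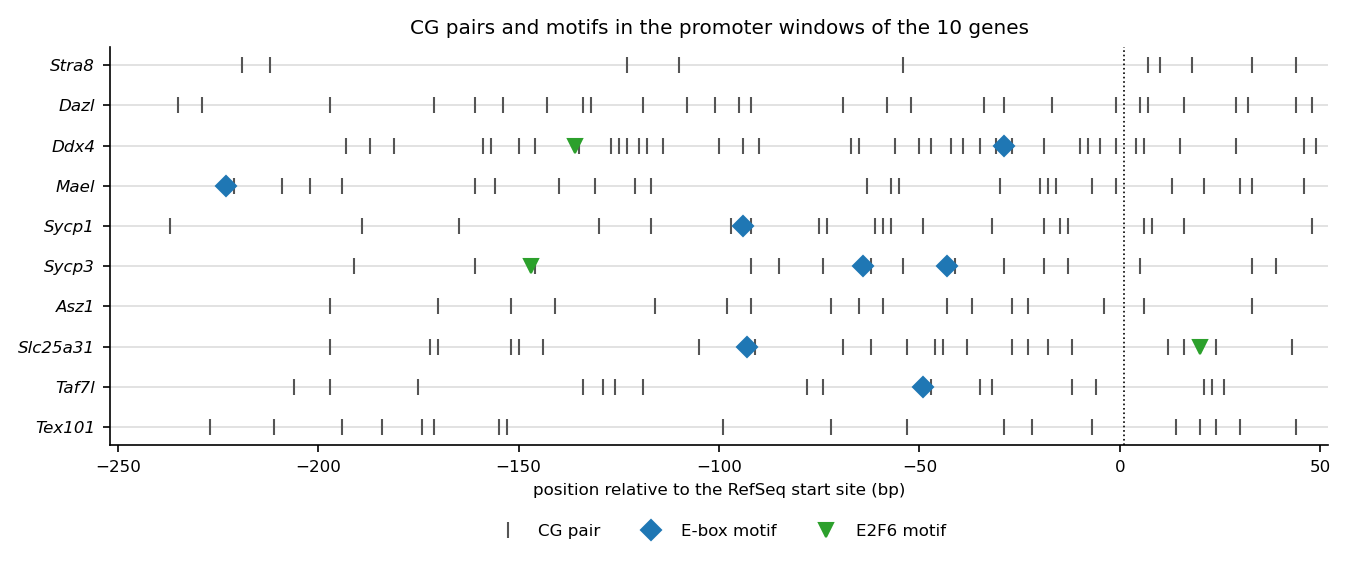
CG pairs (grey ticks), E-box motifs (blue diamonds) and E2F-like motifs (green triangles, labelled E2F6 motif) by position in bp relative to the RefSeq start site, for the 10 genes, with the start site as a dotted line. Of the 10 windows, 6 hold an E-box and 3 of these also the E2F-like motif, and the number of CG pairs runs from 10 to 38.

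The levels of the 10 genes in untreated wild-type cells spanned a wide range. Mean TPM at 0 h was 29.8 ± 4.9 (SD, n = 2 for this and all means below) for *Stra8*, 13.4 ± 2.0 for *Mael*, 13.0 ± 2.3 for *Dazl* and 8.28 ± 0.80 for *Ddx4*. It was 5.78 ± 0.065 for *Sycp3*, 3.97 ± 1.4 for *Sycp1* and 2.60 ± 0.85 for *Tex101*. The lowest were *Taf7l* with 2.24 ± 0.52, *Slc25a31* with 1.83 ± 0.056 and *Asz1* with 0.750 ± 0.23 TPM. In this order *Mael* and *Dazl* did not differ beyond their spread, and neither did *Sycp1* and *Tex101*, *Tex101* and *Taf7l*, or *Taf7l* and *Slc25a31*. Among the genes tested, *Stra8* stood at percentile 71.5 of mean TPM in wild type at 0 h and at percentile 96.3 in the libraries labelled DKO at 72 h. *Asz1* stood at percentiles 2 and 14.9 in the same groups.

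**Figure D2:**
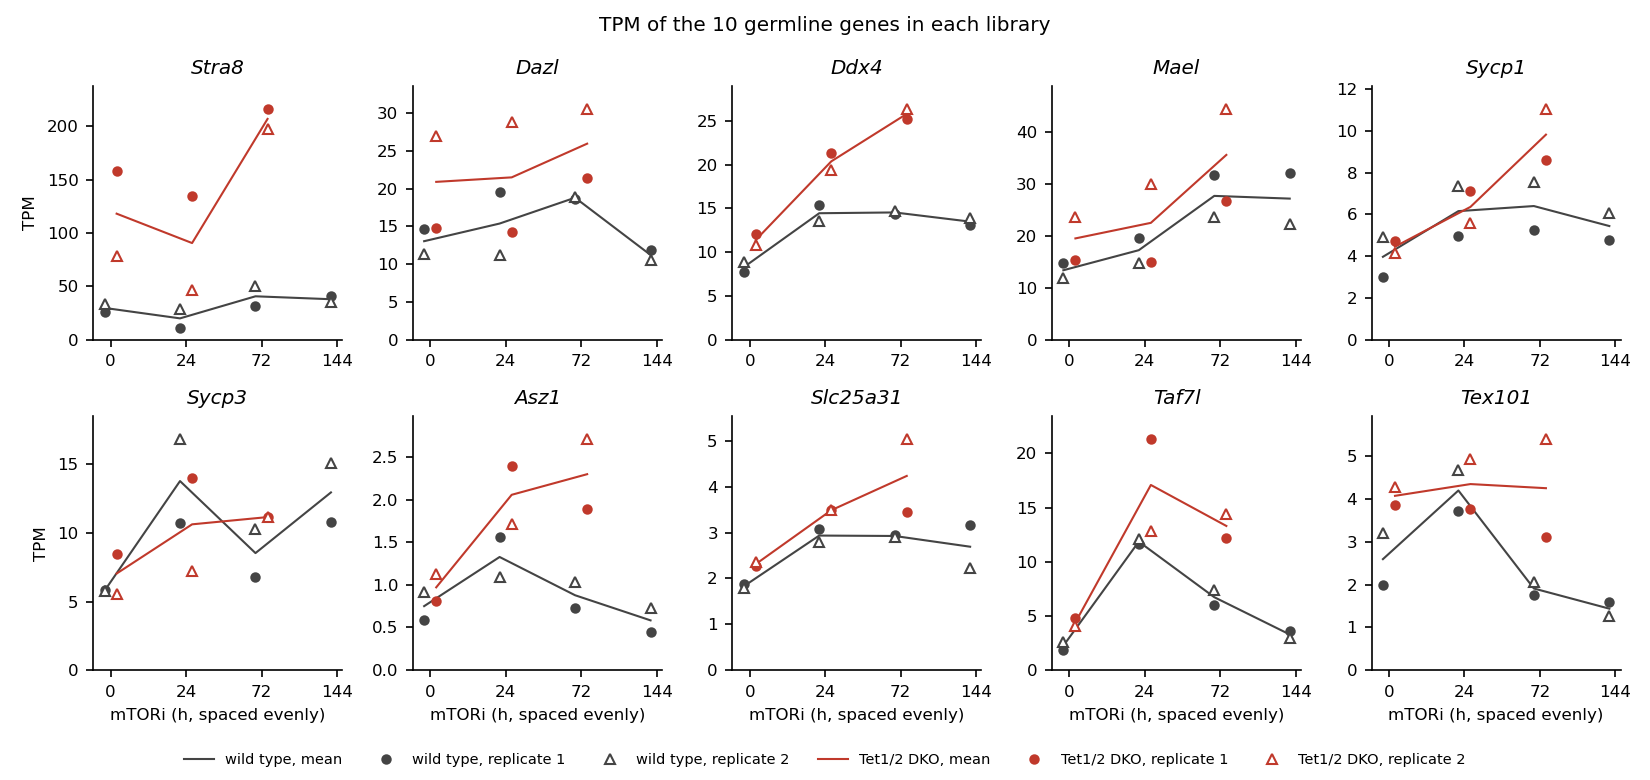
TPM of each of the 10 genes (linear axes from 0, 1 scale per gene) against hours of mTORi, which are spaced evenly, with filled circles for replicate 1, open triangles for replicate 2 and lines through the means of 2 libraries. Wild type is grey and the libraries labelled DKO are red. The red points of Stra8 reach 216 TPM against 50.1 TPM at most in wild type, and Taf7l has its highest mean at 24 h in both genotypes.

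Compared with wild type, several of the 10 genes were higher in the libraries labelled DKO, and *Stra8* by far the most. Averaged over 0, 24 and 72 h, limma called 5 of the 10 genes higher (*Stra8*, *Taf7l*, *Ddx4*, *Tex101* and *Asz1*) and 0 lower, against 13.3% called higher and 6.38% called lower of all genes tested. *Asz1* passed the filter only through the libraries labelled DKO, where it was higher (values below), so its call is not independent of the filter. The median log2 fold change of the 10 was 0.46, against 0.05 over all genes, and all 10 were above 0, as were 59.2% of all genes (85.7% with spike-in scaling). With spike-in scaling 7 were called higher, *Dazl* and *Mael* in addition, against 8.3% of 18232 genes, with medians of 0.75 and 0.29. These fits take the 3 times of a replicate set (the libraries of 1 genotype with 1 number) as independent, although their deviations were correlated. With the sets as correlated blocks in limma (correlation 0.237), 3 of the 10 were called (*Stra8*, *Ddx4* and *Taf7l*, limma adjusted p = 0.0069, 0.0039 and 0.026), against 6.39% of all genes, and *Asz1* and *Tex101* were not (both 0.10). On the means of the sets, 2 against 2, limma called 0 of the 10, and 0% of all genes, higher, and 4 of the 10 (18% of all genes) had an unadjusted p under 0.05. The fits that take account of the sets were run on TPM only, so none is available for the calls with spike-in scaling. The calls of single genes and gene lists in the averaged comparison below are those of the first fit.

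*Stra8*, which encodes the factor that retinoic acid induces for entry into meiosis, had 26.3 and 33.3 TPM in wild type at 0 h, 11.3 and 28.7 at 24 h, 31.2 and 50.1 at 72 h, and then 40.9 and 34.9 at 144 h. It had, in the libraries labelled DKO, 158 and 78.3 TPM at 0 h, 135 and 46.3 at 24 h, and then 216 and 197 at 72 h. At each shared time both of these were above both wild-type libraries, and the lowest of them, at 24 h, was below the highest wild-type library, at 72 h. The ratio of mean TPM was 3.96, 4.52 and 5.08 at 0, 24 and 72 h. The averaged log2 fold change was 2.10 ± 0.30 (± SE, 95% interval 1.43 to 2.77, limma adjusted p = 0.0018), and it stayed called without any 1 of the 12 libraries (1.85 to 2.35). At single times the values were 1.87 ± 0.52 at 0 h (adjusted p = 0.14), 2.07 at 24 h (adjusted p = 0.082) and 2.35 at 72 h (limma adjusted p = 0.035), and the call at 72 h was lost without any 1 of the 4 libraries of that time. The averaged value was 2.38 ± 0.32 with spike-in scaling.

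The RNA-binding proteins of germ cells are represented by *Dazl*, which binds mRNAs and promotes their translation, and by *Ddx4* (Vasa), an RNA helicase of germ granules. *Ddx4* had 7.71 and 8.84 TPM in wild type at 0 h, 15.3 and 13.5 at 24 h, 14.3 and 14.7 at 72 h, and then 13.1 and 13.9 at 144 h. In the libraries labelled DKO it had 12.01 and 10.8 TPM at 0 h, 21.3 and 19.4 at 24 h, and then 25.2 and 26.3 at 72 h. The genotypes did not overlap at any shared time, and the replicates lay closer together than those of *Stra8*. The averaged log2 fold change was 0.56 ± 0.06 (limma adjusted p = 0.00057), which stayed called without any 1 library, and the value at 72 h was 0.79 ± 0.11 (limma adjusted p = 0.0076). That call at 72 h was lost without replicate 1 of wild type or either library labelled DKO (limma adjusted p up to 0.07). *Dazl* gave 14.7 and 11.4, 19.5 and 11.2, 18.7 and 18.9, and 11.9 and 10.6 TPM in wild type at the 4 times in order. The libraries labelled DKO gave 14.8 and 27.0, 14.2 and 28.8, and 21.4 and 30.5 TPM. Replicate 2 was above replicate 1 at all 3 times, by ratios of 1.83, 2.02 and 1.43, and the averaged log2 fold change of 0.48 ± 0.21 did not pass the test (limma adjusted p = 0.14). On the spike-in scale *Dazl* was called, at 0.75 ± 0.17 (limma adjusted p = 0.014). In the libraries labelled DKO the factor of replicate 1 was above that of replicate 2 at 0, 24 and 72 h (2.81 and 2.375, 2.24 and 1.36, 2.53 and 1.73). These factors narrow the gap between the replicates of *Dazl*, and of *Mael* below, on that scale.

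Of the piRNA factors, *Mael* (Maelstrom, needed to silence transposons in spermatocytes) showed the same order of replicates as *Dazl*. It had 15.4 and 23.6 TPM in the libraries labelled DKO at 0 h, 15.02 and 29.9 at 24 h, and then 26.7 and 44.4 at 72 h. In wild type it had 14.8 and 11.96, 19.6 and 14.8, 31.7 and 23.7, and 32.1 and 22.2 TPM at the 4 times. The genotypes overlapped at 24 and 72 h and the averaged log2 fold change was 0.37 ± 0.20 (limma adjusted p = 0.23), against 0.64 ± 0.17 on the spike-in scale (limma adjusted p = 0.029). *Asz1*, a mitochondrial anchor of piRNA factors, was the lowest of the 10 genes, with a mean of 1.27 TPM over the 14 libraries. The wild-type group means were 0.750, 1.33, 0.878 and 0.583 TPM in order of time, and those labelled DKO 0.971, 2.06 and 2.30. *Asz1* thus passed the filter of 1 TPM through the libraries labelled DKO. It had 0.588 and 0.913 TPM in wild type at 0 h, 1.56 and 1.09 at 24 h, 0.728 and 1.03 at 72 h, and then 0.442 and 0.724 at 144 h. Libraries labelled DKO had 0.811 and 1.13, 2.395 and 1.72, and 1.89 and 2.71 TPM. The groups overlapped at 0 h and not at 24 and 72 h, and the averaged log2 fold change was 0.46 ± 0.12 (limma adjusted p = 0.028). This call was lost without any of 6 of the 12 libraries (adjusted p up to 0.08).

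*Sycp1* and *Sycp3* encode the transverse filament and the axial element of the synaptonemal complex, which pairs chromosomes in meiosis. *Sycp1* ran from 3.005 to 7.54 TPM in the 6 wild-type libraries of the shared times (median 5.12) and from 4.18 to 11.05 TPM in the 6 labelled DKO (median 6.36). *Sycp3* ran from 5.74 to 16.8 TPM (median 8.53) and from 5.58 to 14.01 TPM (median 9.82). For both genes the ranges overlapped, and the averaged log2 fold changes of 0.26 (95% interval −0.06 to 0.57, limma adjusted p = 0.25) and 0.07 (−0.33 to 0.47, limma adjusted p = 0.83) did not pass the test. *Sycp3* lies on the opposite strand of *Chpt1*, which had a mean of 7.15 TPM, and whether the counting used strand is not given in the sources used here.

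*Taf7l*, a testis paralog of a TFIID subunit, had 1.88 and 2.60 TPM in wild type at 0 h, 11.6 and 12.1 at 24 h, 6.03 and 7.43 at 72 h, and then 3.63 and 2.94 at 144 h. In the libraries labelled DKO it had 4.77 and 4.04 TPM at 0 h, 21.3 and 12.9 at 24 h, and then 12.2 and 14.4 at 72 h, above both wild-type libraries each time. The averaged log2 fold change was 0.70 ± 0.13 (limma adjusted p = 0.0050) and stayed called without any 1 library. At 72 h it was 0.89 ± 0.22 (limma adjusted p = 0.045), a call that was lost without any 1 of the 4 libraries. *Slc25a31*, an ADP/ATP carrier of sperm mitochondria, also did not overlap between genotypes at any shared time, with 1.79 to 3.08 TPM in wild type and 2.27 to 5.03 TPM in the libraries labelled DKO over all 3 times. Its averaged log2 fold change of 0.27 ± 0.10 did not pass the test (limma adjusted p = 0.086). *Tex101*, a GPI-anchored surface protein of germ cells needed for sperm function, had 1.99 and 3.20, 3.71 and 4.69, and 1.75 and 2.07 TPM in wild type at the 3 shared times and 3.88 and 4.28, 3.76 and 4.94, and 3.12 and 5.40 TPM in the libraries labelled DKO. The 24 h libraries overlapped and those of 0 and 72 h did not. The averaged log2 fold change was 0.46 ± 0.14 (limma adjusted p = 0.041), and this call was lost without any of 9 of the 12 libraries (adjusted p up to 0.10).

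At the single times fewer calls were made. At 0 h and at 24 h limma called 0 of the 10 genes, against 0.579% and 0.756% of all genes called higher, and 3 and 2 of the 10 had an unadjusted p under 0.05, against 14.9% and 16% of all genes in either direction. At 72 h it called 3 of the 10 higher (*Stra8*, *Ddx4* and *Taf7l*), against 4.14% of all genes, with a median log2 fold change of 0.67 against 0.11 over all genes. With spike-in scaling 1 of the 10 (*Stra8*, 2.78 ± 0.56, limma adjusted p = 0.041) was called at 72 h, against 0.302% of all genes. Both libraries labelled DKO stood above both wild-type libraries for 7, 5 and 9 of the 10 genes at 0, 24 and 72 h, against 25.6%, 21.9% and 40.3% of all genes. This held at all 3 times for 4 of the 10 (*Stra8*, *Ddx4*, *Slc25a31* and *Taf7l*) and for 10% of all genes. For 0 of the 10 genes were all 6 libraries labelled DKO above all 6 wild-type libraries of these times, which held for 1.75% of all genes.

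**Figure D3:**
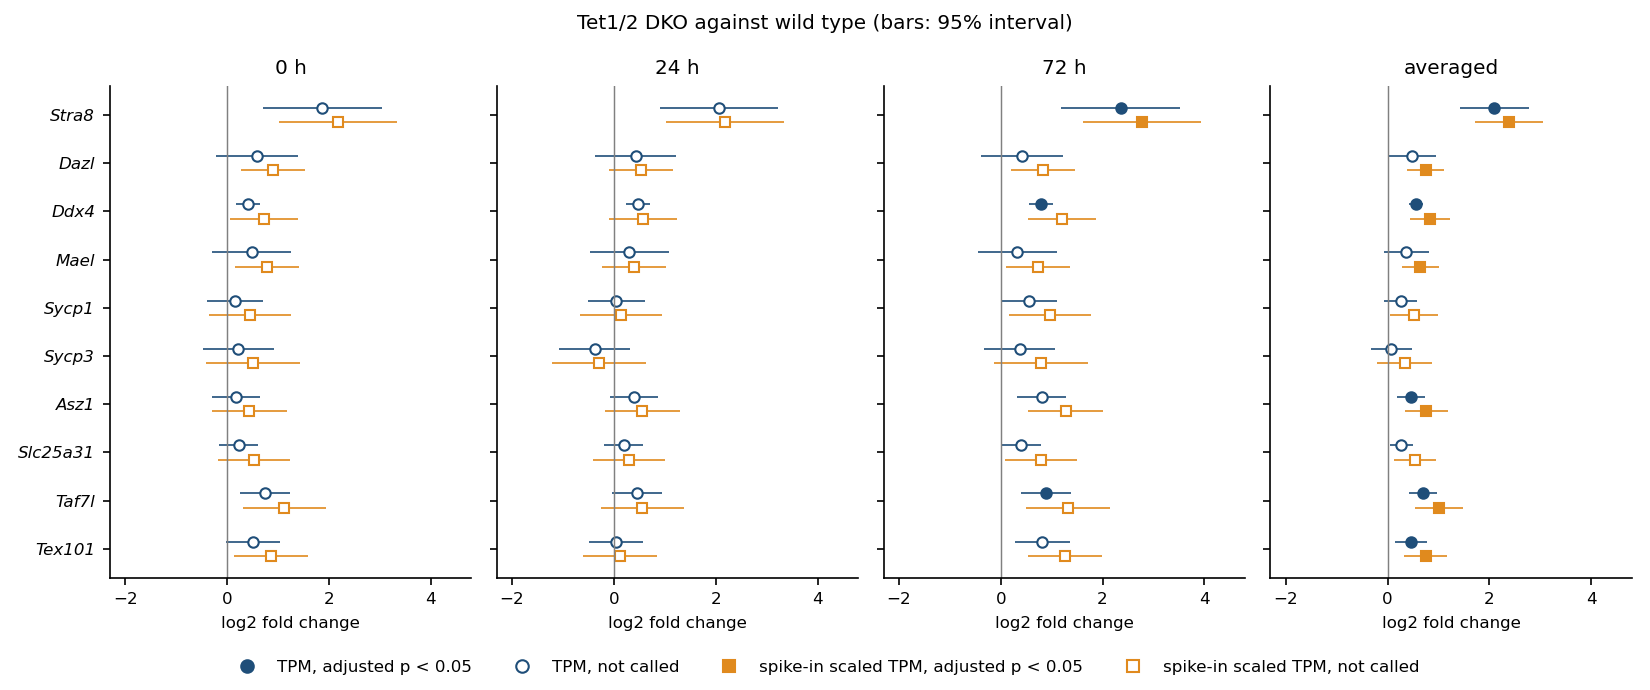
Log2 fold change of the libraries labelled DKO against wild type for each of the 10 genes at 0, 24 and 72 h and averaged, with bars for the 95% interval, on TPM (blue circles) and spike-in scaled TPM (orange squares), filled where the adjusted p was under 0.05. The averaged values on TPM lie between 0.07 (Sycp3) and 2.10 (Stra8), and 5 of 10 are filled on TPM and 7 of 10 on the spike-in scale.

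During mTORi the log2 fold change on TPM in wild type was above 0 for 9, 9 and 7 of the 10 genes at 24, 72 and 144 h, against 49.9%, 53.3% and 54.8% of all genes. The median of the 10 was 0.50, 0.49 and 0.38, against −0.0012, 0.04 and 0.06 over all genes. At 24 h limma called 3 of the 10 higher than at 0 h (*Taf7l*, *Sycp3* and *Ddx4*), against 17.6% of all genes, at 72 h 2 (*Taf7l* and *Ddx4*), against 14.4%, and at 144 h 2 (*Sycp3* and *Ddx4*), against 17.4%. None of the 10 was called lower at 144 h, where 12.7% of all genes were. The 3 comparisons share the 0 h libraries. The deviations of the replicates were correlated within a genotype, though by only 0.068 between 0 h and 144 h of wild type. A fit with a replicate block within each genotype, whose basis is weak at 144 h, is therefore given as well. It called 7 of the 10 higher at 24 h (21.5% of all genes), 5 at 72 h (18.8%) and 3 at 144 h (22%), and 1 lower at 144 h (16.7%). The genes that it added were *Mael*, *Sycp1*, *Slc25a31* and *Tex101* at 24 h, *Mael*, *Sycp1* and *Slc25a31* at 72 h, and at 144 h *Mael*, which was higher, and *Tex101*, which was lower.

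*Taf7l* had the largest log2 fold change of the 10 genes in wild type at 24 and 72 h. Its mean TPM at 24 h was 5.29 times that at 0 h, with a log2 fold change of 2.00 ± 0.22 (limma adjusted p = 0.00017), and the ratio was 3.004 at 72 h (log2 fold change 1.26 ± 0.22, limma adjusted p = 0.0027) and 1.47 at 144 h (0.41 ± 0.22, limma adjusted p = 0.18). The rise at 24 h was also called on the spike-in scale (1.84 ± 0.39, limma adjusted p = 0.0060), where it was the 1 call among the 10 genes, against 1.25% of all genes. *Ddx4* was 0.73 ± 0.11, 0.75 ± 0.11 and 0.64 ± 0.11 higher at 24, 72 and 144 h on the log2 scale of TPM (limma adjusted p = 0.00077, 0.0011 and 0.0020), with no overlap with the 0 h libraries. On the spike-in scale the values were 0.41, 0.37 and −0.30, none of them called. *Sycp3* was 1.09 ± 0.31 higher at 24 h and 1.02 ± 0.31 higher at 144 h (limma adjusted p = 0.022 and 0.033), and the first call was lost without any of 3, and the second without any of 4, of the 4 libraries concerned (limma adjusted p up to 0.16 and 0.20). *Mael* had TPM ratios of 2.07 at 72 h and 2.03 at 144 h, with log2 fold changes of 0.99 and 0.95 that were not called without the block (limma adjusted p = 0.059 and 0.063) and were called with it (limma adjusted p = 0.00041 and 0.00038). On the spike-in scale the values were 0.60 and −0.021, and neither was called without the block. *Tex101* had log2 fold changes of 0.55 at 24 h and −0.54 at 144 h, which did not pass the test without the block (limma adjusted p = 0.10 and 0.11) and passed it with the block (0.046 and 0.049). The value at 24 h was 0.30 with spike-in scaling and was not called there with or without the block.

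The values at 144 h depended on the scale. Of the 7 genes above 0 on TPM, 6 (*Stra8*, *Ddx4*, *Mael*, *Sycp1*, *Slc25a31* and *Taf7l*) were below 0 on the spike-in scale, and the calls of *Ddx4* (0.64 on TPM, −0.30 on the other scale) and *Sycp3* (1.02 and 0.11) were lost. *Dazl* at 144 h was 0.19 below 0 h on the log2 scale of TPM (log2 fold change −0.19 ± 0.36, limma adjusted p = 0.72), and on the spike-in scale it was called lower (−1.17 ± 0.30, limma adjusted p = 0.0047), from 31.0 and 24.1 spike-in scaled TPM at 0 h to 12.7 and 10.6 at 144 h. *Tex101* was likewise called lower on that scale (−1.36 ± 0.35, limma adjusted p = 0.0044). These 2 of the 10 genes stand against 50.5% of all genes called lower and 0.461% called higher at 144 h on the spike-in scale, whose median log2 fold change over all genes was −0.83. The median of the 10 genes was −0.42, and 8 of the 10 lay above the median of all genes. At 72 h 0 of the 10 were called higher on the spike-in scale in wild type, against 0.697%. With the replicate block within each genotype on that scale, 2 of the 10 were called higher in wild type at 24 h (*Taf7l* and *Sycp3*, against 4.48% of all genes) and 1 lower (*Stra8*, against 25.7%). At 72 h that fit called 2 higher (*Taf7l* and *Mael*, against 2.85%), and at 144 h 0 higher (1.05%) and 3 lower (*Dazl*, *Tex101* and *Asz1*, against 66.3%).

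In the libraries labelled DKO more of the 10 genes, and more of all genes, were called higher on TPM at 72 h than at 24 h. On the spike-in scale without a block the order for the 10 was the other way, and 72 h was not tested against 24 h. At 24 h limma called 2 of the 10 higher than at 0 h (*Taf7l* and *Ddx4*), against 13.2% of all genes, and at 72 h 5 (*Taf7l*, *Ddx4*, *Sycp1*, *Asz1* and *Slc25a31*), against 18.8%. The log2 fold change was above 0 for 9 and 10 of the 10, against 50.2% and 60.9% of all genes. With the replicate block within the genotype these were 2 (17.1% of all genes) and 7 (24.8%), with *Mael* (0.82 ± 0.10, limma adjusted p = 0.00092) and *Sycp3* (0.62 ± 0.21, limma adjusted p = 0.042) in addition at 72 h. *Taf7l* was 1.71 ± 0.22 higher at 24 h and 1.40 ± 0.22 higher at 72 h (limma adjusted p = 0.00050 and 0.0018). *Ddx4* was 0.79 ± 0.11 and 1.11 ± 0.11 higher (limma adjusted p = 0.00072 and 0.00022). *Sycp1*, whose mean TPM at 72 h was 2.20 times that at 0 h, rose by 0.98 ± 0.25 (limma adjusted p = 0.016), *Asz1* by 0.74 ± 0.21 (limma adjusted p = 0.028) and *Slc25a31* by 0.64 ± 0.17 (limma adjusted p = 0.022). The calls of *Sycp1*, *Asz1* and *Slc25a31* were lost without 2, 4 and 3 of the 4 libraries in turn. On the spike-in scale 1 of the 10 was called at 24 h (*Taf7l*, 1.28 ± 0.39, limma adjusted p = 0.028), against 0.505% of all genes, and 0 at 72 h, against 0.713%. With the block on that scale *Taf7l* was called higher (1.95% of all genes) and *Stra8* lower (38.1%) at 24 h, and 3 of the 10 (*Taf7l*, *Ddx4* and *Sycp1*) were called higher at 72 h, against 5.34%.

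**Figure D4:**
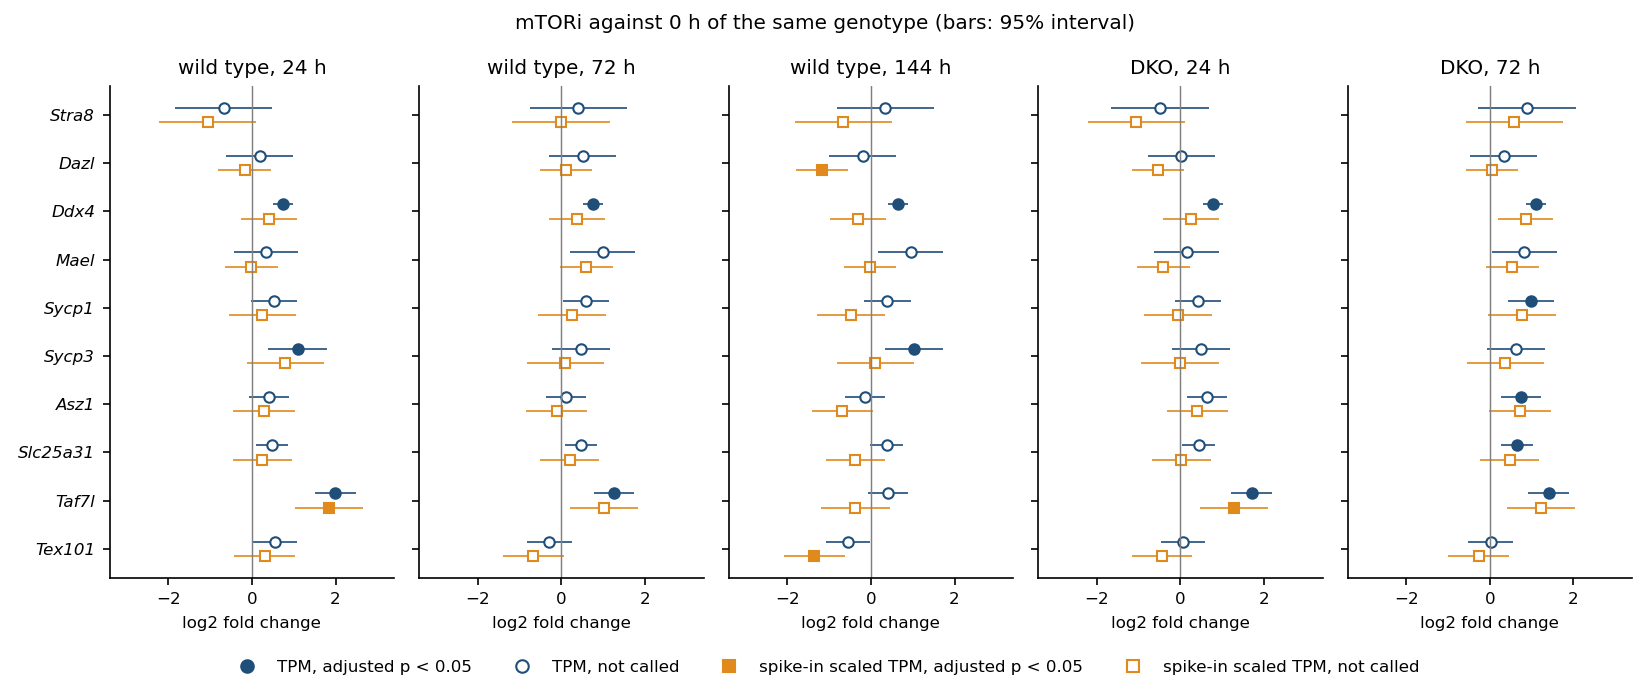
Log2 fold change of each mTORi time against 0 h of the same genotype for the 10 genes, with bars for the 95% interval, on TPM (blue circles) and spike-in scaled TPM (orange squares), filled where the adjusted p was under 0.05, in the fit without a block. Taf7l at 24 h is filled on both scales in both genotypes, and at 144 h in wild type the filled values on TPM are above 0 (Ddx4 and Sycp3) and those on the spike-in scale below 0 (Dazl and Tex101).

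Whether the responses to mTORi differed between the genotypes was tested directly. Limma called 0 of the 10 genes, and 0 of all 15878, for the difference between the responses at 24 h or at 72 h, with 620 and 577 genes at an unadjusted p under 0.05. Of the 10, 0 at 24 h and 1 at 72 h had an unadjusted p under 0.05. The latter was *Ddx4*, whose response at 72 h was 0.37 larger in the libraries labelled DKO (95% interval 0.03 to 0.70, limma adjusted p = 1.0). The intervals of the others were wide, such as −1.17 to 2.12 for *Stra8* at 72 h and −0.54 to 0.83 for *Taf7l* at 72 h, so a 2-fold difference of the responses lay within the interval of *Stra8*. A larger number of calls in 1 genotype is therefore not shown to be a larger response.

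Of the 45 pairs of the 10 genes, 42 (93.3%) had a Pearson r above 0 over the 14 libraries on log2(TPM + 1), against 52.9% of all pairs of the 15878 genes, with a median of 0.52 against 0.035, from −0.32 (*Dazl* and *Sycp3*) to 0.91 (*Ddx4* and *Slc25a31*). The libraries share genotype, time and line, so these values describe the 14 libraries and carry no test. Replicate 2 of the libraries labelled DKO was above replicate 1 for *Dazl* and *Mael* at all 3 times, while for *Stra8* it was below, with ratios of replicate 2 to replicate 1 of 0.50, 0.34 and 0.91. Outside the 10 genes, the 5 with the profile most like the mean of the standardized profiles were *Ccdc172* (r = 0.957), *Zfp398* (0.952), *Ppp3cc* (0.952), *Zyg11b* (0.951) and *Cyth3* (0.950), over 14 libraries and among 15868 genes.

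Other genes of the same processes were also examined, from lists drawn up by function with earlier results of these data known. In the averaged comparison 8 of 16 tested piRNA pathway genes (of 20 listed) were called higher in the libraries labelled DKO and 0 lower, with a median log2 fold change of 0.33. The values were 0.71 ± 0.12 for *Piwil2*, a PIWI protein, 0.67 ± 0.09 for *Mov10l1*, a helicase of piRNA production, 0.63 ± 0.07 for *Gtsf1*, a cofactor of PIWI proteins, and 0.59 ± 0.07 for *Fkbp6*, a cochaperone (limma adjusted p = 0.0043, 0.0010, 0.00069 and 0.00063). Of 28 tested genes of meiotic chromosomes and recombination (of 33), 10 were higher and 1 lower, with a median of 0.36. They included *Meioc*, which keeps germ cells in meiotic prophase (0.75 ± 0.14), *Rec114*, a partner of the meiotic break machinery (0.72 ± 0.13), *Dmc1*, the meiotic recombinase (0.66 ± 0.08), and *Tex12*, of the synaptonemal complex (0.65 ± 0.12), with limma adjusted p = 0.0054, 0.0053, 0.00086 and 0.0052. Of 12 tested other germ cell regulators and testis paralogs (of 18), 5 were higher and 2 lower, with a median of 0.21. Here the largest values were those of the testis tubulins *Tuba3a* (1.23 ± 0.22) and *Tuba3b* (1.13 ± 0.21), which are near-identical copies whose reads can be shared, followed by the bromodomain protein *Brdt* (0.89 ± 0.11) and the dipeptidase *Dpep3* (0.58 ± 0.14), with limma adjusted p = 0.0043, 0.0063, 0.00086 and 0.020. Over the 3 lists together 23 of 56 tested genes were higher and 3 lower, against 13.3% and 6.38% of all genes, and on the spike-in scale 25 of 61 were higher and 0 lower, against 8.3% and 0.559% of all genes. The median over the 3 lists was 0.30, and that of all genes 0.05.

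**Figure D5:**
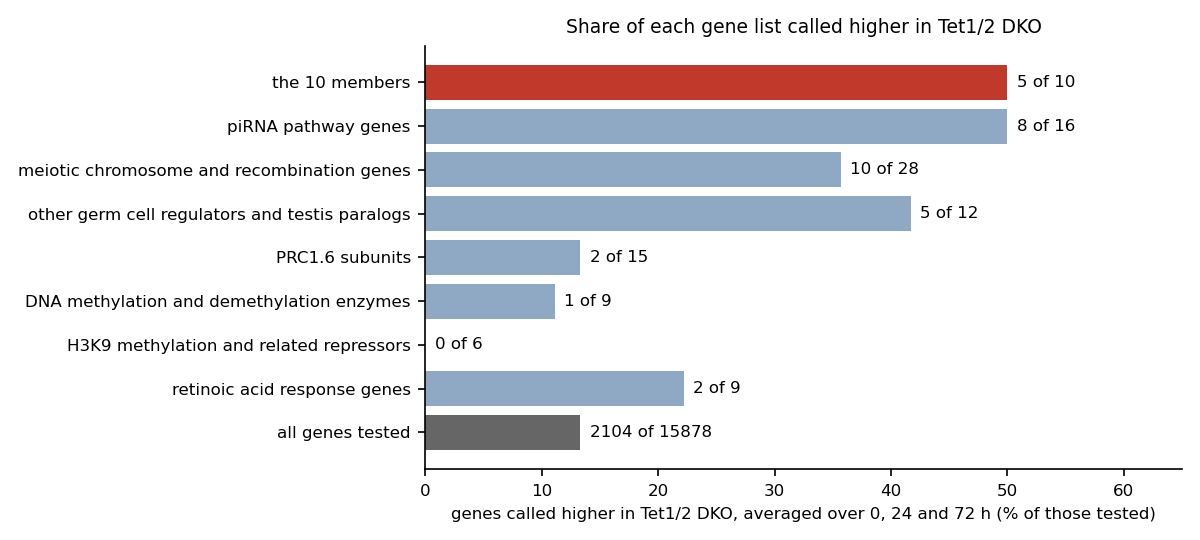
Share of the tested genes of each list that limma called higher in the libraries labelled DKO, averaged over 0, 24 and 72 h (bars from 0, in percent), for the 10 genes (red), 7 lists (blue) and all genes tested (grey), with counts beside the bars. The 10 genes and the piRNA genes have 5 of 10 and 8 of 16 called, and all genes 13.3%.

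For the known repressors of the group, the background on TPM was 13.3% of all genes called higher and 6.38% called lower. Of 15 PRC1.6 subunits, 2 were called higher in the averaged comparison (*Yaf2* at 0.55 ± 0.09 and *Pcgf6* at 0.28 ± 0.08, limma adjusted p = 0.0034 and 0.032) and 0 lower, with a median of 0.09. With spike-in scaling 1 of the 15 was higher and 0 lower, with a median of 0.36. Of 6 genes of H3K9 methylation, 2 were lower and 0 higher. They were *Setdb1*, the H3K9 methyltransferase, from 74.1, 98.0 and 78.1 mean TPM in wild type to 54.1, 73.3 and 60.7 in the libraries labelled DKO at 0, 24 and 72 h (−0.41 ± 0.05, limma adjusted p = 0.0011), and its partner *Atf7ip* (−0.43 ± 0.07, limma adjusted p = 0.0033). With spike-in scaling 0 of the 6 were called in either direction, against 8.3% higher and 0.559% lower of all genes, where the median over all genes was 0.29. Of 9 enzymes of DNA methylation and demethylation, 4 were lower and 1 higher. Beside *Tet2* and *Tet1* the lower ones were *Dnmt3l*, a cofactor of the de novo methyltransferases (−0.47 ± 0.12, limma adjusted p = 0.021), and the methyltransferase *Dnmt3b* (−0.45 ± 0.12, limma adjusted p = 0.026), and the higher one was *Tet3* (0.34 ± 0.07, limma adjusted p = 0.0085). With spike-in scaling 1 of the 9 was lower and 1 higher. Of 9 tested retinoic acid response genes (of 11), 2 were higher, the retinoic acid binding protein *Crabp1* (0.86 ± 0.14, limma adjusted p = 0.0026) and the receptor *Rxra* (0.37 ± 0.07, limma adjusted p = 0.0069), and 1 was lower, *Crabp2* (−0.35 ± 0.11, limma adjusted p = 0.049). With spike-in scaling 3 of the 9 were higher and 0 lower, so that the call of *Crabp2* was lost. Their part in the level of *Stra8* was not tested.

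The same germline lists were also compared between 144 h and 0 h in wild type, where 17.4% of all genes were called higher and 12.7% lower on TPM. Of the piRNA genes 6 of 16 were higher than at 0 h and 0 lower, with *Mov10l1* (1.16 ± 0.15), *Tdrd5* (1.13 ± 0.24) and *Tdrd1* (1.11 ± 0.17), the last 2 of them Tudor proteins of germ granules, and *Piwil2* (0.65 ± 0.22), with limma adjusted p = 0.00053, 0.0066, 0.0013 and 0.044. Of the meiotic genes 8 of 28 were higher, such as *Dmc1* (1.08 ± 0.14) and the meiotic cohesin *Stag3* (0.77 ± 0.11), and 2 were lower, *Hormad2* (−1.88 ± 0.19), a protein of unsynapsed axes, and *Rec114* (−1.72 ± 0.23), with limma adjusted p = 0.00057, 0.0010, 0.00021 and 0.00066. *Rec114* thus fell from a mean of 13.2 TPM at 0 h to 3.19 at 144 h in wild type, and was higher in the libraries labelled DKO in the averaged comparison. Of the other germ cell genes, *Boll*, a relative of *Dazl*, was higher (1.20 ± 0.23, limma adjusted p = 0.0040) and *Rpl10l*, a testis ribosomal protein, lower (−1.25 ± 0.10, limma adjusted p = 6.5e-05). Over the 3 lists 15 of 56 were higher and 3 lower, against 17.4% and 12.7% of all genes. On the spike-in scale, where the median log2 fold change over all genes was −0.83, 0 of 61 were higher and 18 lower, against 0.461% and 50.5% of all genes, with a median of −0.63. Of the PRC1.6 subunits 4 of 15 were higher on TPM (*E2f6*, *Wdr5*, *Max* and *Mga*, between 0.32 and 0.84) and 0 lower, whereas on the spike-in scale 0 were higher and 12 of 15 lower, against 50.5% of all genes called lower. Of the methylation enzymes 2 of 9 were higher, *Tet1* (0.79 ± 0.09, limma adjusted p = 0.00027) and *Tet2* (0.42 ± 0.13, limma adjusted p = 0.031), and 0 of the 6 H3K9 genes were called. With spike-in scaling 0 of the 9 enzymes were higher and 6 lower, 6 of the 6 H3K9 genes were lower, and *Tet1* (−0.24) and *Tet2* (−0.60) were not called. Of the 9 retinoic acid genes, the receptor *Rara* was higher (1.22 ± 0.16, limma adjusted p = 0.00065) and *Crabp2* lower (−0.71 ± 0.19, limma adjusted p = 0.020). With spike-in scaling 0 of these 9 were higher, so that the call of *Rara* was lost, and 3 were lower, against 50.5% of all genes.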

How the data were processed

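Deposited TPM of 14 libraries were used. Per the labels and the study's methods, total RNA was spiked with ERCC RNAs and ribosomal RNA was depleted. The authors trimmed the reads, aligned them to mm10 and quantified them against GENCODE VM19. The submitters' processing notes name cutadapt 2.4, STAR 2.7.3a and StringTie 2.0. The deposited TPM sum to 1000000 in each library and keep no read counts, so the depth behind a value is unknown and no counting error is given. Entries of 1 identifier were summed.

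Values were analysed as log2(TPM + 1) for genes whose mean TPM was 1 or more, which leaves 15878 of 38890 genes above 0 in any library. The pseudocount makes fold changes of low genes smaller. All 7 groups of 2 libraries entered 1 limma 3.58.1 fit (R 4.3.3, trend over the mean), tested on simulated data. Benjamini-Hochberg adjusted p-values were taken over all genes of a comparison, and genes under 0.05 were called. Errors of fold changes are SE of the fit, which pools the spread of all groups, and intervals are 95%. The averaged comparison is the mean of the differences at 0, 24 and 72 h. Spike-in scaled TPM multiplies each library by the median ratio of the study's spike-in normalized values, held here in part, to the deposited TPM (factors 1.00 to 2.81), and 18232 genes passed the filter. All genes of a library share 1 factor. The factors are coarse, since each of the 14 equals 76 divided by a whole number from 27 to 76 (to within 0.02 of a whole number), and those of replicates differ by up to 1.65 times.

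Replicate numbers were checked for pairing by correlating replicate differences across genes. They were correlated at 0.247 to 0.405 in the 3 pairs of groups labelled DKO and at 0.068 to 0.461 in the 6 wild-type pairs, and below 0 in 10 of 12 pairs between genotypes. The study states that experiments were repeated independently and that matching time points of a biological replicate were handled in parallel. Whether this parallel handling was over time or between the genotypes is not stated. From the correlations the numbers were taken to pair libraries within a genotype.

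The 10 members and the gene lists were chosen with earlier results of these data known. All members are named, with the Tet genes, up to 4 called genes of each list with the largest change in the averaged comparison and in wild type at 144 h, and the 5 genes of most similar profile. Sequences are from RefSeq (GRCm38.p6). Other alternatives were another pseudocount, no filter, fits of the compared groups alone, replicate blocks, correlated or averaged replicate sets and each library left out.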

Additional observations from a re-analysis of the deposited data

How the results depend on the processing

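Of 110 values (10 genes in 11 comparisons), 22 were called. No called value reversed when 1 library was left out, but 10 lost the call, and of the 88 uncalled values 31 changed sign and 2 gained a call. For genes called higher, the counts then ran from 0 to 1 in the comparison of the genotypes at 72 h, from 3 to 6 averaged, from 2 to 3 in wild type at 24 h and from 2 to 4 in the libraries labelled DKO at 72 h, and the count was 1 throughout in wild type at 144 h. The shares of all genes called in these runs are not given. The counts therefore do not show whether the 10 genes moved differently from other genes. Each call between the genotypes at a single time was lost under at least 1 alternative. In the averaged comparison, by contrast, *Stra8*, *Ddx4* and *Taf7l* were called under each alternative run except the means of the replicate sets.

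Between the genotypes at 72 h, 3 of the 10 genes were called (4.14% of all genes), against 1 on the spike-in scale (0.302%), 1 without a filter (1.08%), 1 with a replicate block on equal numbers over all libraries (2.13%) and 0 from the 72 h libraries alone (0.0126%). The averaged count of 5 (13.3%) was 3 without a filter (4.53%). In fits added after seeing the data it was 3 with correlated replicate sets (6.39%) and 0 on the means of the sets (0%). Replicate differences were correlated below 0 in 10 of the 12 pairs of groups between the genotypes. Nothing in the labels or the study ties the numbers of 1 genotype to those of the other. After seeing the data, a block with the numbers crossed was nevertheless added, a pairing picked from these same data. It called 1 of the 10 at 0 h, 2 at 24 h, 4 at 72 h and 8 averaged, against 2.1%, 2.24%, 9.54% and 18.8% of all genes.

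Against 0 h, the replicate block within each genotype called 7 of the 10 higher in wild type at 24 h (21.5% of all genes) and 5 at 72 h (18.8%). At 144 h it called 3 higher (22%) and 1 lower (16.7%). In the libraries labelled DKO it changed no call at 24 h and called 7 higher at 72 h (24.8%). In wild type at 144 h 1 was called higher without a filter (6.37% of all genes), and in the libraries labelled DKO at 72 h 3 were called from the compared libraries alone (14.4%). The spike-in scale called 1 higher in wild type at 24 h, 0 at 72 h, 0 at 144 h with 2 lower, and in the libraries labelled DKO 1 at 24 h and 0 at 72 h. Combined with that block, a setting added after seeing the data, the scale called 2 higher and 1 lower in wild type at 24 h, 2 higher at 72 h, 0 higher and 3 lower at 144 h, 1 higher and 1 lower in the libraries labelled DKO at 24 h and 3 higher at 72 h.

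The spike-in scale, with or without that block, turned the sign of 17 values. The log2 fold changes became, in wild type, −0.17 for *Dazl* and −0.013 for *Mael* at 24 h, −0.0087 for *Stra8* and −0.12 for *Asz1* at 72 h, and −0.66 for *Stra8*, −0.30 for *Ddx4*, −0.021 for *Mael*, −0.47 for *Sycp1*, −0.37 for *Slc25a31* and −0.37 for *Taf7l* at 144 h. In the libraries labelled DKO they became −0.54 for *Dazl*, −0.41 for *Mael*, −0.053 for *Sycp1*, −0.010 for *Sycp3* and −0.44 for *Tex101* at 24 h and −0.27 for *Tex101* at 72 h, and −0.15 for *Ddx4* in the difference of the responses at 24 h. By construction this scale shifts all genes of a library together.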
